A study of Mus musculus with 8 samples.

Results

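The regions described here lie at 32 genes of the lysosome, the acidic compartment in which cells break down proteins, sugars and lipids. The genes were 13 subunits of the vacuolar proton pump, 8 proteases, 4 glycosidases, 5 genes of the lysosomal membrane and of lipid handling, and Tfeb and Tfec, which encode transcription factors of the TFE family. A region was taken as a member when it overlapped one of these genes, or when it lay within 20 kb of one that was its nearest protein-coding gene end in the GRCm38 assembly. That gave 173 of the 148664 regions of the count table, and each of the 32 genes had at least 1. The farthest member lay 19063 bp from Ctsb, with line means of 3.41 to 5.48 CPM (counts per 1000000 counts of a library), and the nearest region left out lay 20448 bp from Ctsl, with 0.596 to 3.05 CPM.

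ATAC-seq, where a transposase cuts and tags open DNA, gave the accessibility of chromatin, so a higher count means that a region was open more often. RNA was not measured. The 8 libraries came from 4 mouse melanoma cell lines, grown as pools from lymph node cell suspensions of mice whose skin melanoma arose at 25 to 30 weeks of age. Lines 112 and 113 are labelled STAT3 knockout (Stat3∆), and lines 119 and 73 are labelled wild type (Stat3fl), which by the allele name still carry a floxed Stat3. The labels also call each line a clone. The driver oncogene of the mice and the Cre that removed Stat3 are not given in the sources used here. Each line has 2 libraries, labelled biological replicates, and titles carry p18, p44, p14 and p68 for lines 112, 113, 119 and 73, with no meaning stated. Nothing says that replicates came from separate cultures, so tests between lines measure the spread between these libraries, which may be technical.

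Total counts ran from 2697546 to 7464336 per library, with the shallowest in line 112 and the deepest in line 119. The targeted gene does not check the labels: 0 of the 10 tested regions that overlap Stat3 set both knockout lines apart from both wild-type lines, and the strongest had 30.5 and 25.9 CPM (line 112), 38.5 and 37.5 (113), 18.2 and 18.2 (119) and 38.9 and 28.1 (73). On chromosome Y, the median deviation of weakly covered regions from the 4-line mean was -1.66 in both knockout lines and 1.40 and 1.81 in lines 119 and 73 on the log2 scale. Genotype and this difference cannot be told apart. Line 112 also lay 0.70 above the 4-line mean over weakly covered regions of chromosome 6, and its values are given beside the 3 member genes on that chromosome.

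The vacuolar proton pump acidifies the lysosome. Its V0 sector is the ring in the membrane through which protons pass, and its V1 sector is the cytosolic part that hydrolyses ATP. TFEB, TFE3, MITF and TFEC share a basic helix-loop-helix leucine zipper and bind E-boxes. TFEB and TFE3 are known for switching on lysosome genes through such sites near their starts, and MITF is the factor of the melanocyte lineage. It acts at pigment genes through E-boxes and through a variant known as the M-box. Melanosomes, the pigment granules of melanocytes, are related to lysosomes and share proteins with them, so the lysosome genes were set beside 18 pigment cell genes, Mitf among them.

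Sequences of the promoters are shown because the E-box, a site that the TFE family binds, lies in part of them. RefSeq promoter windows of GRCm38.p6, 300 bases from 250 before to 50 after the start, were found for 26 of the 32 genes. Among genes with a window, a gene held a motif when at least 1 of its windows matched. The E-box CACGTG, which reads the same on both strands, was present in 10 of the 26 (38.5%), against 8.91% of 17492 protein-coding genes. Its flanked form TCACGTGA was present in 6 (23.1%), against 1.41%. The M-box core CATGTG, searched on both strands, was present in 5 (19.2%), against 13.2%, and its flanked form TCATGTGA in 3 (11.5%), against 1.00%. Every flanked match contains a match to its core. In the stretches printed here, 5′ to 3′ on the strand of the gene, capitals mark the matches counted for that gene: all E-boxes in Lamp1, flanked E-boxes from Ctsa to Atp6v0e, and flanked M-boxes from Ctss to Atp6v0c.
Lamp1: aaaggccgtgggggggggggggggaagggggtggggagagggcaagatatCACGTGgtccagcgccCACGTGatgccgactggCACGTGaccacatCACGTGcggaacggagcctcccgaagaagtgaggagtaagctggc
Ctsa: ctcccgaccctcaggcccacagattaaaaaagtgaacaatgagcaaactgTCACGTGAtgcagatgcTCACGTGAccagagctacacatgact
Ctsd: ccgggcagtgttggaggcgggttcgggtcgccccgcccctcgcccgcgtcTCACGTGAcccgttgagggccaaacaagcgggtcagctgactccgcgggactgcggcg
Mcoln1: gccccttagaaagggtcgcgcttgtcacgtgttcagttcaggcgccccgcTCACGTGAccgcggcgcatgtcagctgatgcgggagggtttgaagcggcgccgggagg
Atp6v0d1: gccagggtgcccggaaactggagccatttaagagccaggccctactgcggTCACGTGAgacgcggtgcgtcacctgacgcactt
Atp6v1a: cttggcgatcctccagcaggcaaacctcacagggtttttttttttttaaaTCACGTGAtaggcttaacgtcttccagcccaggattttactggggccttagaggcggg
Atp6v0e: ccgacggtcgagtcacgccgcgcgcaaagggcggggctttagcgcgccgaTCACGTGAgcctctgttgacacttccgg
Ctss: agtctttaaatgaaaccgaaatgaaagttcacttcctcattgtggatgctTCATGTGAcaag
Tpp1: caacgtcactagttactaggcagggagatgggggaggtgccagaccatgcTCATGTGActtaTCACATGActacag
Atp6v0c: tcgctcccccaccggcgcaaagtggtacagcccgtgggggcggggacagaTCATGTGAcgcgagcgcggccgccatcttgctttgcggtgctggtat
The stretches lie at chr8:13159050-13159190 (Lamp1, + strand), chr2:164833710-164833802 (Ctsa, + strand), chr7:142387869-142387976 (Ctsd, - strand), chr8:3500423-3500530 (Mcoln1, + strand), chr8:105566035-105566118 (Atp6v0d1, - strand), chr16:44139334-44139441 (Atp6v1a, - strand), chr17:26676348-26676425 (Atp6v0e, + strand), chr3:95526754-95526815 (Ctss, + strand), chr7:105752206-105752281 (Tpp1, - strand) and chr17:24169421-24169517 (Atp6v0c, - strand). All but that of Ctss fall inside a member region. In Lamp1, the lysosomal membrane glycoprotein, the 4 E-boxes begin 61, 45, 28 and 15 bases before the start. In Ctsa, the carboxypeptidase that protects the sialidase Neu1 and the galactosidase Glb1, a flanked E-box begins 13 bases before the start and another 4 bases after it. The match begins 99 bases before the start in the aspartic protease gene Ctsd, 46 in the calcium channel gene Mcoln1, 4 in the V0 subunit gene Atp6v0d1 and 132 in the catalytic V1 subunit gene Atp6v1a. The letters are a description of the windows and do not show which factor is bound.

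**Figure D1:**
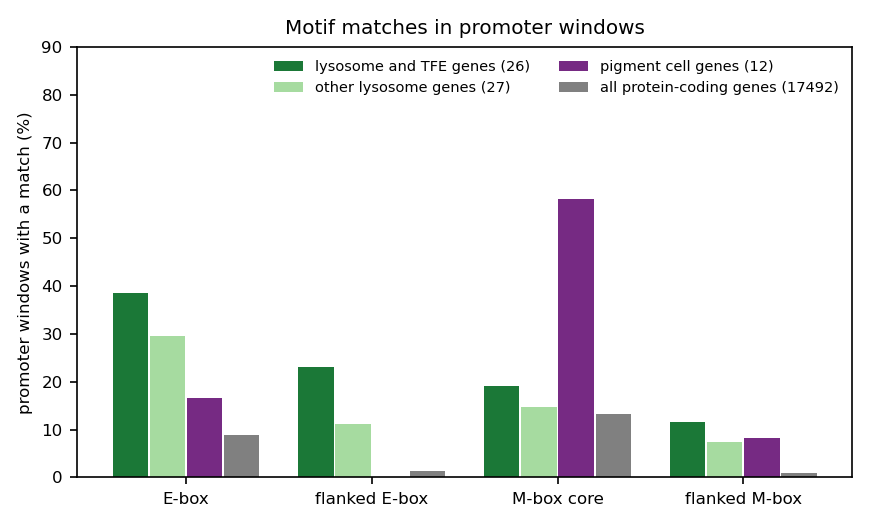
Share of genes (vertical axis, in percent, labelled as windows) with a match to each motif in at least 1 promoter window of 300 bases. Bars are for 26 lysosome and TFE genes, 27 other lysosome genes, 12 pigment cell genes and 17492 protein-coding genes. The flanked E-box is present in 23.1% of the lysosome and TFE genes and in 1.41% of all genes. The M-box core is most frequent in the pigment cell genes, at 58.3%.

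The other lists are given as counts, with no test of a difference. Of 12 pigment cell genes with a window, 7 (58.3%) held the M-box core, 1 (8.33%) its flanked form, 2 an E-box and 0 the flanked E-box. Of 27 further lysosome genes, 8 (29.6%) held an E-box, 3 (11.1%) its flanked form, 4 (14.8%) the M-box core and 2 (7.41%) its flanked form. Of 13 genes fixed as a list of TFE control (the mTOR, Rag, Ragulator and folliculin genes and Ppargc1a), 4 (30.8%) held an E-box, 0 its flanked form, 3 (23.1%) the M-box core and 2 (15.4%) its flanked form. At the gene starts themselves, the 10 start regions of genes with an E-box had a median of 28.7 CPM per kb, and the 13 of genes with a window but no E-box had 27.7 CPM per kb. The ranges overlapped, from 15.7 to 48.6 and from 24.2 to 75.6 CPM per kb. The median deviations from the 4-line mean put lines 112 and 119 below it in both sets (-0.23 and -0.32 on the log2 scale with an E-box, -0.14 and -0.47 without) and lines 113 and 73 above it (0.32 and 0.41 with, 0.36 and 0.30 without), so the higher of the latter pair was 73 in one set and 113 in the other.

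The starts of the lysosome genes were open in all 4 lines. Of the 32 genes, 29 had a region within 1 kb of a start, and the strongest of these is called the start region. At 26 of the 29, all 8 libraries had a deposited peak, and the others had 7. Line means ran from 7.98 CPM at Atp6v0a1 in line 119 to 85.8 CPM at Atp6v1a in line 113. The region of Atp6v1a, like those of Atp6v1d, Npc2 and Ctsa, also lies at the start of a neighbouring gene (Naa50, Eif2s1, Isca2 and Neurl2). Ctsk, Ctss and Tfec had none: their nearest regions lay 3017, 2863 and 6070 bp from a start.

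Start levels differed between lines and did not divide by genotype. Lamp1 had 26.5 and 25.9 CPM (line 112), 36.7 and 37.3 (113), 16.7 and 14.5 (119) and 35.3 and 33.9 (73). Line 119 was the low line and the genotypes overlapped. Ctsd had 17.5 and 20.3, 29.2 and 27.8, 16.7 and 16.9, and 28.4 and 26.7 CPM in the same order. Here lines 112 and 119 were low together and lines 113 and 73 high together. Mcoln1 had 17.7 and 20.9, 29.0 and 29.0, 18.2 and 17.4, and 25.6 and 29.2 CPM, which is the same division of the lines. Atp6v1h, the regulatory H subunit of V1, had 29.3 and 24.3, 32.4 and 35.6, 24.2 and 20.9, and 35.1 and 34.2 CPM. The log2 fold changes, knockout over wild type with the lines as units, were 0.33 (standard error 0.65) for Lamp1, 0.09 (0.66) for Ctsd, 0.09 (0.66) for Mcoln1 and 0.09 (0.62) for Atp6v1h, with adjusted p of 0.876, 0.975, 0.975 and 0.975. For Ctsd the sign turned, to -0.18, with an offset for the level of the surrounding 10 Mb.

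Over the 29 start regions the highest line was 113 in 14, 73 in 13 and 112 in 2, and the lowest was 119 in 21 and 112 in 8. The 2 highest in line 112 were Atp6v1f and Atp6v1e1, both on chromosome 6, where the weakly covered regions of their 10 Mb windows lay 0.78 and 1.09 above the 4-line mean in that line; their part in these levels was not tested. The ratio of the highest to the lowest line ran from 1.49 in Atp6v1a to 3.13 in Gusb, the glucuronidase, with a median of 1.89. Libraries of the 2 genotypes overlapped at 28 of the 29, and Atp6v1e1 was the exception (of all start regions, the knockout libraries lay above in 6.9% and below in 6.86%). In a joint test of the 4 line means, 29 of 29 differed among lines at an adjusted p under 0.05 (edgeR quasi-likelihood test, adjusted over all 140329 regions tested). Over all 39 member regions within 1 kb of a start it was 36, against 89.4% of all such regions.

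**Figure D2:**
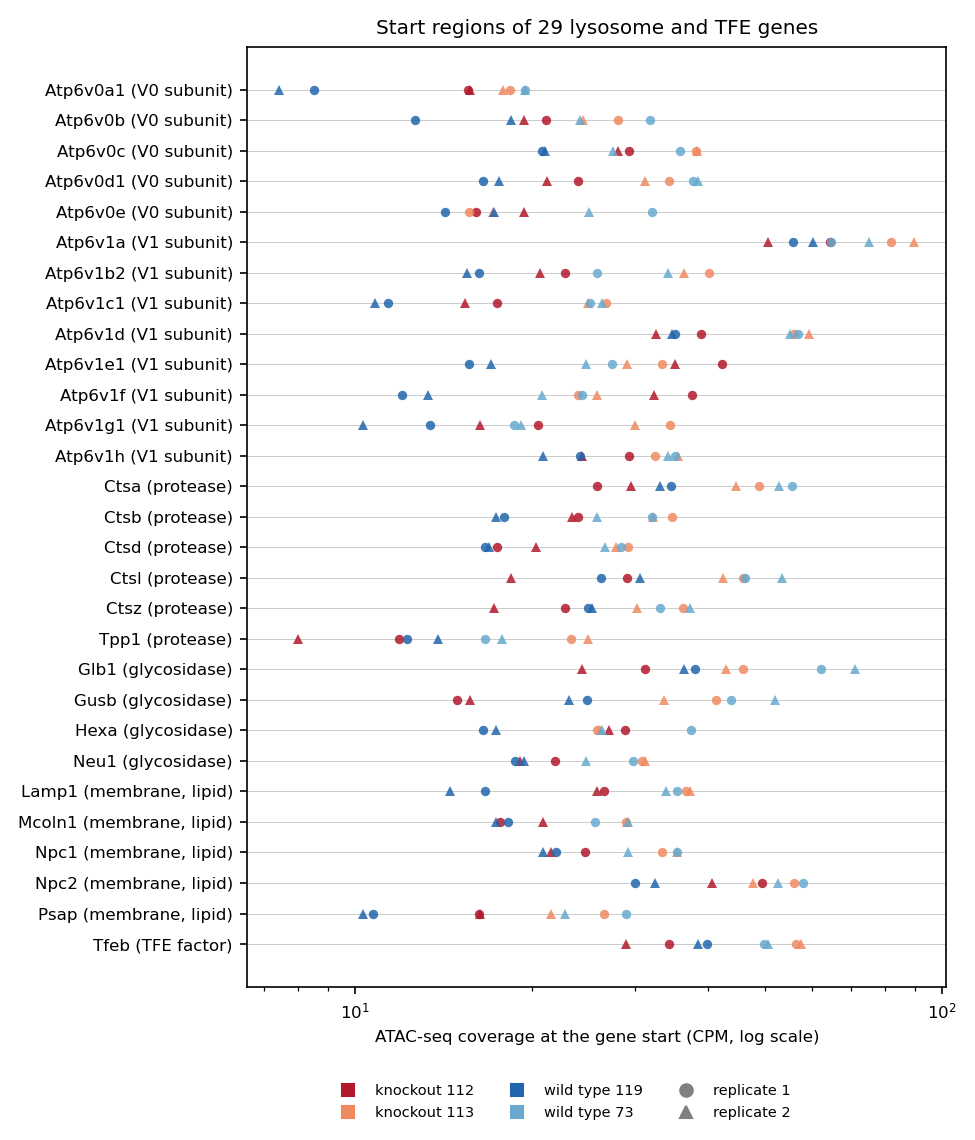
Coverage at the start region of 29 lysosome and TFE genes (horizontal axis, CPM on a log scale), 1 point per library, coloured by line. Line 119 is the lowest line in 21 genes, and the libraries of the 2 genotypes overlap at 28 of the 29.

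The pairs of lines show the same ordering at the starts. Of 39 member regions at starts, 33 were higher and 0 lower in line 113 than in line 119, against 58.6% and 12.3% of all 16689 start regions tested. Between the wild-type lines, 0 were higher and 29 lower in line 119 than in line 73, against 10.8% and 60.1%. Between the knockout lines, 0 were higher and 21 lower in line 112 than in line 113, against 5.63% and 38.9%. Line 112 exceeded line 119 at 11 and was lower at 1 (22.2% and 12.3% of all starts), and it exceeded line 73 at 2 and was lower at 17 (11.5% and 47.0%). Lines 113 and 73, of different genotype, gave 3 starts higher and 3 lower in line 113 (16.8% and 19.5%). These pairs share libraries and are not independent of each other.

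Lysosome starts divided the lines as all starts did, with 113 and 73 above the 4-line mean and 112 and 119 below, and pigment cell genes divided them otherwise. For lines 112, 113, 119 and 73, the median deviations of the 29 start regions from the 4-line mean were -0.20, 0.34, -0.40 and 0.30 (log2 CPM). Over 16689 starts of protein-coding genes the medians were -0.19, 0.30, -0.35 and 0.30. The 17 pigment starts gave 0.68, 1.31, -0.59 and -1.47. Line 73, lowest for pigment genes, was above the mean at 27 of 29 lysosome starts. It was also above the mean at 12426 of the 16689 starts of all genes. The SD of the 2 libraries of a line was at most 0.24 for the pigment median and 0.08 for the lysosome median. Lines 112 and 119 both lay below the mean at lysosome starts, while for pigment genes they lay on opposite sides.

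**Figure D3:**
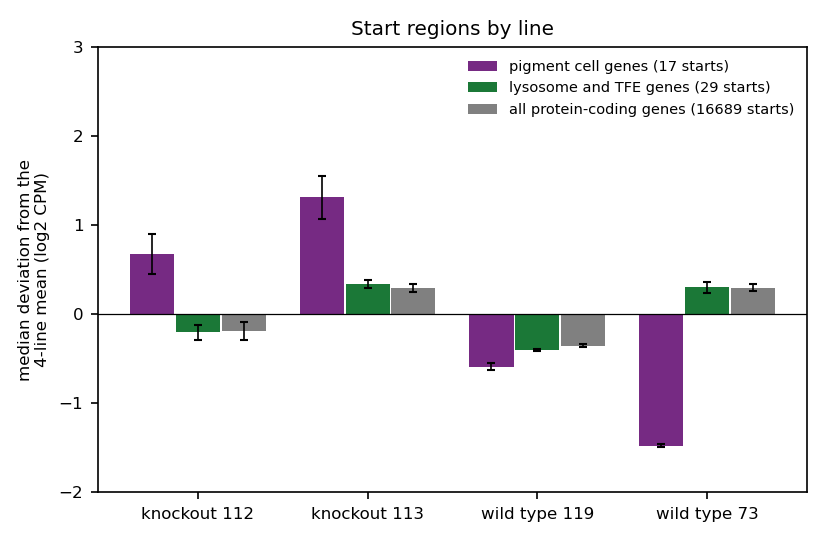
Median deviation of start regions from the 4-line mean (vertical axis, log2 CPM) in each line, for 17 pigment cell genes, 29 lysosome and TFE genes and 16689 protein-coding genes; error bars are the SD of the 2 libraries of a line. The lysosome bars follow those of all genes, from -0.40 in line 119 to 0.34 in line 113, and the pigment bars fall from 1.31 in line 113 to -1.47 in line 73.

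Marker genes were summed as a check of the labelled cell type. Of 18 pigment cell genes, 17 had a start region (Oca2 had none), and their summed level was 311.8 to 583.6 CPM in the knockout libraries and 162.3 to 185.7 CPM in the wild-type libraries. Of 10 leukocyte markers, 4 had a start region, with sums of 21.0 to 30.8 and 16.4 to 38.9 CPM, and the defining markers Ptprc, Cd3e, Cd79a, Csf1r and Itgam had none. Of 7 stromal and endothelial markers, 5 had one (Pecam1 and Cdh5 had none), with sums of 31.4 to 37.9 CPM in the knockout libraries and 45.1 to 139 CPM in the wild type. The pigment sum thus moved with genotype. It does not show how the wild-type lines differed, since the pigment medians were -0.59 in line 119 and -1.47 in line 73. The largest parts of the sum in line 73 were Pmel (75.8 and 73.3 CPM) and the outermost Mitf start (38.2 and 40.0 CPM). In line 119 these had 31.4 and 33.9 CPM, and 17.2 and 20.4 CPM. The Pmel region also lies at the start of Rab5b, and that Mitf start is not the one of the melanocyte form. The stromal sum was highest in line 73 (139 and 130 CPM), while line 119 (45.1 and 51.0 CPM) lay near the knockout libraries. The part of either in the values given here was not tested. A lower level in a bulk library can mean fewer cells with an open region or less opening in each cell, and these cannot be told apart.

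Genotype was tested with the lines as units, 2 against 2. At an adjusted p under 0.05, edgeR's quasi-likelihood test passed 0 of 172 member regions tested, as it did 0.0% of all 140329. The smallest adjusted p of a member was 0.143. Without adjustment, p was under 0.05 for 15 members higher and 2 lower in the knockout lines, against 8.27% and 8.64% of all regions. All 17 lay away from starts, where the shares of all regions were 9.07% and 9.27%, and 0 of the 39 members at starts passed, against 6.12% of all starts (2.61% higher and 3.51% lower). DESeq2's Wald test on the same sums passed 8, against 4.98% of all regions: they belong to Atp6v0a1, Atp6v0c, Atp6v1a (2), Atp6v1b2, Atp6v1c1, Ctsk and Ctsl. With libraries in place of lines as units, edgeR passed 26 members, against 22.7% of all regions, but the libraries of a line are not independent samples of a genotype. A region is called separated by genotype when each knockout line differed from each wild-type line at an adjusted p under 0.05, in the same direction in all 4 pairs. This rule compares these 4 lines and is not a test of genotype.

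By that rule 18 member regions had higher and 9 had lower levels in the knockout lines, against 7.64% and 7.41% of all regions tested. None of the 39 at starts was separated, against 7.35% of all start regions (3.39% higher and 3.96% lower), so the 27 all lay among the 133 tested away from starts, where 8.23% of all regions were higher and 7.84% lower. They belonged to 14 of the 32 genes, and 5 genes (Atp6v1a, Atp6v1b2, Hexa, Ctsd and Ctsl) had regions in both directions. For comparison, 77 of 204 regions of pigment cell genes were higher and 5 lower, and at pigment starts 17 of 29 were higher. Of 221 regions of 34 other lysosome genes, 13 were higher and 12 lower. At the starts of these other genes 3 of 46 were higher and 1 was lower (6.52% and 2.17%). Gpnmb is in both this list and the pigment list. The member counts are close to the background in the lower direction (5.23%) and above it in the higher direction (10.5%).

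The count of 27 fell to 13 with the DESeq2 Wald test (8.66% of all regions), to 17 without line 119 replicate 1 (13 higher and 4 lower, against 5.15% and 5.82% of all regions) and to 18 without line 112 replicate 1 (12 and 6, against 5.48% and 5.87%). Scaling by total counts gave 19 higher and 4 lower, against 8.59% and 6.42%. A regional offset, which subtracts the median level of weakly covered regions in a 10 Mb window, gave 11 higher and 9 lower, against 5.54% and 8.98%, of which 19 were among the 27. In 15 of 16 alternatives no start was separated, and restriction to regions with a mean of at least 50 counts separated the Glb1 start, with 24.3 to 45.8 CPM in the knockout and 36.3 to 71.1 CPM in the wild-type libraries. The Wald test lost 14 of the 27: both of Tfec and of Hexa, those of Psap and Ctsb, Atp6v0a1 at 44972 bp, Atp6v0e at 29110 bp, Atp6v1a at 55484 and 15419 bp, Atp6v1b2 at 3933 bp, Atp6v1c1 at 1303 and 18246 bp and Ctsl at 25916 bp. The minimum of 50 counts left 6 of the 27 to test and lost Tfec at 6070 bp and Atp6v1e1 at 1644 bp. The losses given region by region are those under the other settings.

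**Figure D4:**
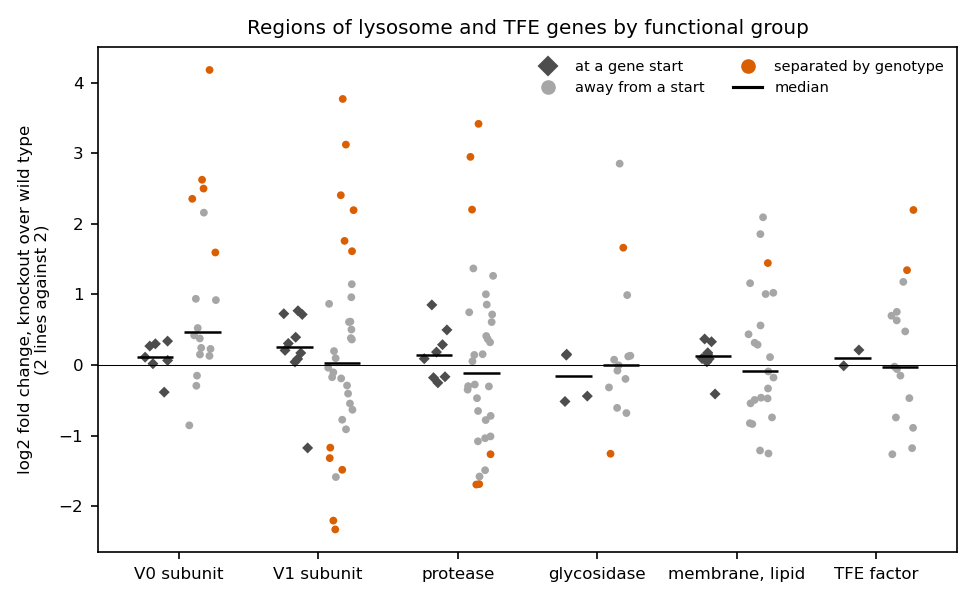
Log2 fold change, knockout over wild type with the lines as units (vertical axis), of the 172 tested regions by functional group, with regions at starts as diamonds and those away from starts as circles, separated regions in orange and a bar at each median. No region at a start is orange, and the fold changes reach 4.18 in the V0 group.

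In the V0 sector, 5 of 25 regions were separated, and all 5 were higher in the knockout lines, against 7.64% of all regions. Away from starts, 15 of 18 V0 regions had a higher mean in the knockout lines, against 45.4% of all regions away from starts. Their median log2 fold change was 0.47, against -0.14 for all such regions. With the regional offset the median was 0.22, against -0.28, and 12 of 18 were higher, for which no share of all regions is given. Atp6v0a1 holds 10 of the 25 V0 regions, and regions of 1 gene are not independent. At the 7 regions at V0 starts the median was 0.11, against 0.07 for all starts, and with the regional offset it was -0.18, against -0.09 for all starts. Atp6v0a1, the a1 subunit that forms the path of the protons, held the region with the largest fold change of all members. At 24234 bp from its start (chr11:101034632-101035820, inside the gene) it had 25.4 and 19.4 CPM (line 112), 45.5 and 38.5 (113), 1.94 and 2.70 (119) and 1.28 and 1.11 (73). All 4 knockout libraries and none of the wild-type libraries had a peak there. The log2 fold change was 4.18 (standard error 0.84, adjusted p 0.143). The adjusted p was 0.0259 without line 112 replicate 1 (0.44% of all regions passed) and 0.0401 among regions that overlap a peak (0.163%). The region entered that last set only through peaks of the knockout libraries, where it was high, so the 0.0401 adds no support. The start region of the same gene had 15.6 and 15.7, 18.4 and 17.9, 8.53 and 7.43, and 19.5 and 19.4 CPM, with line 73 highest and line 119 lowest. Atp6v0a1 and Stat3 fall in the same 10 Mb window of chromosome 11, whose weakly covered regions deviate by 0.30, -0.14, -0.45 and -0.06 for lines 112, 113, 119 and 73, and the region stayed separated with the regional offset.

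Atp6v0c encodes the proteolipid that makes up the ring. Its region 3299 bp from the start (chr17:24164862-24165510) had 22.3 and 18.2 CPM (line 112), 26.7 and 23.2 (113), 4.91 and 6.08 (119) and 2.05 and 4.72 (73). The genotypes did not overlap, and 4 knockout and 0 wild-type libraries had a peak. The log2 fold change was 2.35 (standard error 0.80, adjusted p 0.176). The start region of Atp6v0c, with 29.3 and 28.0, 38.1 and 38.2, 20.8 and 21.1, and 35.8 and 27.5 CPM, overlapped between genotypes. Further separated regions lay 44972 bp from the start of Atp6v0a1 (0.338 to 1.39 CPM in the wild-type and 3.03 to 7.48 CPM in the knockout libraries) and beside Atp6v0e, a small V0 subunit, at 4435 bp (0.775 to 2.30 against 3.72 to 11.1 CPM) and 29110 bp (1.11 to 9.79 against 11.4 to 22.3 CPM). These last 3 were no longer separated with the regional offset. That at 44972 bp was also lost without either replicate of line 112 or of line 73 (log2 fold changes from 2.28 to 2.71 with any 1 library left out), that at 4435 bp without replicate 2 of line 112 or 73 (2.34 to 3.07), and that at 29110 bp with total counts and without line 112 replicate 1, line 113 replicate 2 or either replicate of line 119 (1.29 to 1.84).

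In the V1 sector, 6 of 42 regions were separated with higher and 5 with lower levels in the knockout lines (14.3% and 11.9%, against 7.64% and 7.41% of all regions). Atp6v1a, the catalytic subunit, had 5 of them in or beside the gene. The region 29549 bp from the start (chr16:44108933-44109710) had 16.3 and 9.23 CPM (line 112), 16.3 and 17.4 (113), 1.16 and 1.01 (119) and 1.79 and 0.278 (73), a log2 fold change of 3.77 (standard error 0.92, adjusted p 0.143). Those at 18748 bp (8.31 to 18.8 CPM in the knockout and 1.02 to 3.33 CPM in the wild-type libraries) and 12383 bp (3.14 to 6.05 and 0.256 to 0.844 CPM) were also higher in the knockout lines. A region 55484 bp from the start, outside the gene, had 20.5 and 15.1, 37.8 and 30.7, 11.5 and 8.95, and 0.512 and 0.833 CPM, so here line 119 lay between line 73 and the knockout lines. Between them, at 15419 bp, a weaker region ran the other way, with 0.616 to 3.72 CPM in the knockout and 6.08 to 6.67 CPM in the wild-type libraries. The Atp6v1a start, shared with Naa50, had 64.5 and 50.5, 81.8 and 89.7, 55.7 and 60.3, and 64.8 and 75.0 CPM and was not separated. The regions at 29549, 18748 and 12383 bp kept their separation under every alternative in which they were tested. That at 55484 bp lost it without line 112 replicate 1 or line 119 replicate 2 (log2 fold changes from 2.07 to 2.44 with any 1 library left out), and that at 15419 bp with the regional offset and without replicate 2 of line 112, 113 or 73 (-1.83 to -1.0).

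**Figure D5:**
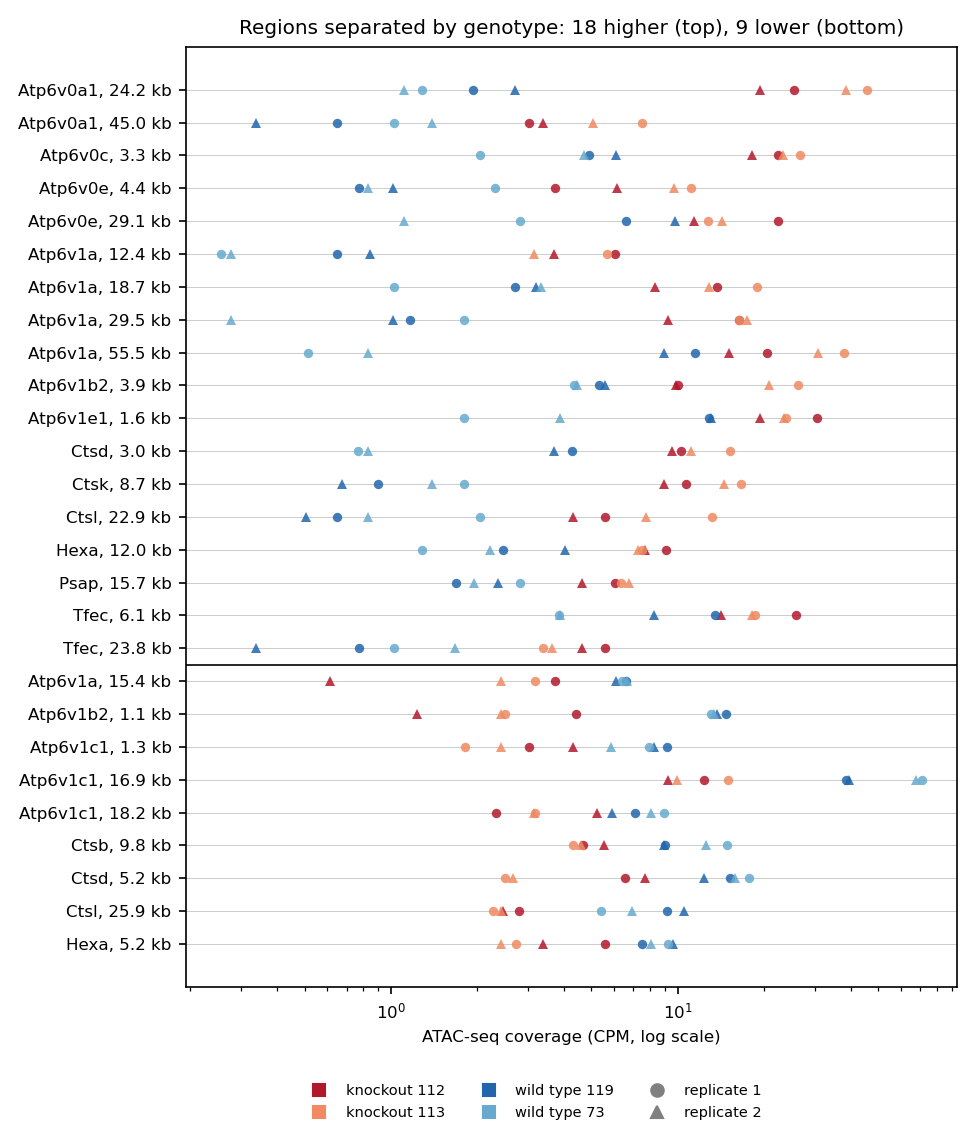
Coverage (horizontal axis, CPM on a log scale) of the 27 member regions separated by genotype, 1 point per library, coloured by line. Labels give the gene and the distance from its start, or from the nearest gene end for Atp6v1b2, Atp6v1c1 and Ctsb. In the 18 upper rows the knockout libraries lie to the right of the wild type, and in the 9 lower rows to the left, with Atp6v1c1 at 16855 bp the strongest of those.

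Atp6v1c1, a stalk subunit that joins V1 to V0, had 3 separated regions, all lower in the knockout lines and all outside the gene. The strongest, 16855 bp from the nearest gene end (chr15:38709299-38710595), had 12.3 and 9.23 CPM (line 112), 15 and 9.92 (113), 38.6 and 39.3 (119) and 70.9 and 67.5 (73). The wild-type libraries lay between 38.6 and 70.9 CPM and the knockout libraries between 9.23 and 15 CPM, and the log2 fold change was -2.2 (standard error 0.64, adjusted p 0.147). It was separated under all 16 alternatives. The region at 18246 bp (2.33 to 5.23 and 5.91 to 8.96 CPM) lay on the same side of the gene. That at 1303 bp (1.81 to 4.31 and 5.83 to 9.18 CPM) lay on the other side. Both were lost with total counts, with peak-overlapping regions only, and without line 112 replicate 1 or line 119 replicate 1. That at 18246 bp was also lost without line 113 replicate 1, and that at 1303 bp without line 119 replicate 2 or line 73 replicate 1. Their log2 fold changes then ran from -1.46 to -0.89 and from -1.65 to -1.34. The start of Atp6v1c1 had 17.5 and 15.4, 26.7 and 24.9, 11.4 and 10.8, and 25.1 and 26.4 CPM, and the genotypes overlapped.

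Atp6v1b2, the nucleotide-binding B2 subunit, had a separated region in each direction. The region 1095 bp beyond its gene end (chr8:69114813-69115373) had 4.42 and 1.23 CPM (line 112), 2.49 and 2.42 (113), 14.7 and 13.7 (119) and 13.1 and 13.3 (73), a log2 fold change of -2.33 (standard error 0.86, adjusted p 0.197). All 4 wild-type libraries and none of the knockout libraries had a peak. The region at 3933 bp, inside the gene, had 9.85 to 26.3 CPM in the knockout and 4.35 to 5.57 CPM in the wild-type libraries, and it was lost with the regional offset and without either replicate of line 119 (log2 fold changes from 1.62 to 1.85). Atp6v1e1, a peripheral stalk subunit on chromosome 6, had a region 1644 bp from its start with 30.5 and 19.4, 23.8 and 23.5, 12.8 and 13, and 1.79 and 3.89 CPM. In its window line 112 lay 1.09 above the 4-line mean, and the region was no longer separated with the regional offset, nor without line 112 replicate 1 or either replicate of line 119 (1.43 to 1.73). Atp6v1d, Atp6v1f, Atp6v1g1 and Atp6v1h had no separated region among 13.

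Among the proteases, 3 of 40 regions were separated as higher and 3 as lower, 7.5% in each direction, against 7.64% and 7.41% of all regions. Ctsk encodes a collagen-degrading cysteine protease. Its region 8651 bp from the start (chr3:95507861-95508564), inside the gene, had 10.7 and 8.93 CPM (line 112), 16.5 and 14.5 (113), 0.905 and 0.675 (119) and 1.79 and 1.39 (73). Peaks were present in 4 knockout and 0 wild-type libraries, and the log2 fold change was 3.42 (standard error 0.93, adjusted p 0.145). Ctsd had a region 2969 bp into the gene with 10.2 and 9.54, 15.2 and 11.1, 4.27 and 3.71, and 0.768 and 0.833 CPM (chr7:142384236-142384858, log2 fold change 2.2, standard error 0.94, adjusted p 0.249). A region 5244 bp on the other side of its start ran the other way, with 6.52 and 7.69, 2.49 and 2.66, 15.3 and 12.3, and 17.7 and 15.8 CPM (log2 fold change -1.69). The Ctsd start between them, where the flanked E-box lies, was not separated.

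Ctsl, a cysteine protease, had a similar pair, both more than 20 kb from its start. The region at 22902 bp had 4.31 to 13.1 CPM in the knockout and 0.507 to 2.05 CPM in the wild-type libraries, and the region at 25916 bp had 2.27 to 2.79 and 5.38 to 10.5 CPM. Ctsb, another cysteine protease, had a region 9779 bp before the gene with 4.30 to 5.54 and 8.95 to 14.8 CPM. The 5244 bp region of Ctsd was lost without line 119 replicate 1 (log2 fold changes from -1.78 to -1.60 with any 1 library left out), the 22902 bp region of Ctsl without line 73 replicate 2 (2.65 to 3.44), its 25916 bp region with total counts and without replicate 2 of line 112 or 73 (-1.80 to -1.62), and that of Ctsb with total counts and without line 112 replicate 1 or either replicate of line 119 (-1.33 to -1.20). Ctsa, Ctss, Ctsz and Tpp1 had no separated region among 9.

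Of 17 regions at the glycosidases, 1 was separated in each direction, against 7.64% and 7.41% of all regions. Both lay at Hexa, the α subunit of hexosaminidase. At 11952 bp from the start the libraries had 9.08 and 7.69 CPM (line 112), 7.48 and 7.26 (113), 2.46 and 4.05 (119) and 1.28 and 2.22 (73). At 5150 bp, before the gene and over Tmem202, they had 2.42 to 5.59 CPM in the knockout and 7.50 to 9.62 CPM in the wild type. The first was lost without line 119 replicate 1 (log2 fold changes from 1.45 to 1.91). The second was lost with total counts, and without line 112 replicate 2, line 73 replicate 1 or either replicate of line 119 (-1.55 to -1.09). A region at 9463 bp had the smallest genotype p of the group, with 2.79 and 1.54, 8.38 and 6.53, 0.517 and 0.338, and 1.28 and 0.556 CPM and a log2 fold change of 2.85 (standard error 0.97, adjusted p 0.176), and it was not separated. The starts of Glb1 and Gusb had higher means in the wild-type lines, with log2 fold changes of -0.52 and -0.44 and adjusted p of 0.729 and 0.817; line 112 was the lowest line in both.

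At the membrane and lipid genes, 1 of 31 regions was separated, as higher in the knockout lines, against 7.64% of all regions. It lay 15652 bp from Psap, the precursor of the saposins, outside the gene, with 6.05 and 4.62, 6.34 and 6.77, 1.68 and 2.36, and 2.82 and 1.94 CPM. That separation was lost without line 112 replicate 1, line 119 replicate 1 or line 73 replicate 2 (log2 fold changes from 1.32 to 1.56). Npc1 and Npc2 encode the proteins that export cholesterol from the lysosome. A region 2199 bp into Npc1 marked line 73 and not a genotype: it had 14.9 and 11.7, 18.1 and 15.2, and 13.2 and 13.3 CPM in lines 112, 113 and 119 and 1.28 and 1.39 CPM in line 73. Another, 19797 bp from the start, had 3.08 to 6.77 CPM in the knockout and 0.388 to 1.94 CPM in the wild-type libraries, with no overlap, and still missed the rule in at least 1 pair of lines. Lamp1 and Mcoln1 had 3 regions, none of them separated.

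Tfeb, a main regulator of lysosome genes, had 12 regions, none of them separated. Its stronger start region (chr17:47737425-47738478) had 34.2 and 28.9 CPM (line 112), 56.4 and 57.6 (113), 39.8 and 38.3 (119) and 49.7 and 50.6 (73). The order of lines was 113, 73, 119 and 112, and the log2 fold change was -0.01 (standard error 0.58, adjusted p 0.997). Its other start region had 17.7 and 13.9, 32.2 and 29.0, 15.8 and 18.9, and 23.6 and 22.5 CPM. The strongest region inside the gene away from a start, at 22310 bp, had 34.0 and 24.0, 40.3 and 44.3, 29.2 and 27.5, and 15.6 and 19.2 CPM, and line 73 was lowest there while it was second highest at the start. A region at 16233 bp was a mark of line 73 alone, with 9.73 and 10.3 CPM against 0.968 to 4.00 CPM in the other 6 libraries. The remaining 8 ran from 0.646 to 12.3 CPM, and their log2 fold changes from -0.89 to 1.18.

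Tfec, the fourth member of the family, lies on chromosome 6 and had no region within 1 kb of a start. Of its 6 regions 5 were tested and 2 separated, both inside the gene and both higher in the knockout lines. That at 6070 bp (chr6:16891520-16892371) had 25.8 and 14.2 CPM (line 112), 18.6 and 18.1 (113), 13.4 and 8.27 (119) and 3.84 and 3.89 (73). That at 23822 bp had 5.59 and 4.62, 3.40 and 3.63, 0.775 and 0.338, and 1.02 and 1.67 CPM. Their log2 fold changes were 1.34 (standard error 0.81, adjusted p 0.411) and 2.2 (0.90, 0.233). In the window of Tfec the weakly covered regions deviated from the 4-line mean by 0.63, -0.31, -0.31 and -0.38 for lines 112, 113, 119 and 73, and neither region was separated with the regional offset. The 6070 bp region was also lost with total counts and without line 112 replicate 1, line 113 replicate 1 or line 119 replicate 2 (log2 fold changes from 1.09 to 1.68), and the 23822 bp region without either replicate of line 113 or without line 73 replicate 1 (2.03 to 2.47). The remaining 4 were between 0.242 and 5.69 CPM.

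Mitf and Tfe3 complete the family. The start regions of the outermost Mitf promoter (28.6 and 20.9, 36.9 and 35.3, 17.2 and 20.4, and 38.2 and 40.0 CPM) and of Tfe3 (28.6 and 13.9, 34.4 and 35.1, 18.7 and 20.4, and 37.9 and 34.7 CPM) were higher in lines 113 and 73 than in lines 112 and 119, with line 73 the highest at both. A second Tfe3 start region had 14.7 and 9.85, 11.6 and 15.7, 12.9 and 13.5, and 22.3 and 22.8 CPM and stood out in line 73 only. A weak middle start of Mitf had 1.16 to 4.92 CPM. The innermost Mitf start, that of the melanocyte form, had 17.5 and 11.1, 19.3 and 16.5, 0.775 and 0.675, and 0.768 and 0.556 CPM and was separated.

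Position within the gene went along with direction. Away from starts, 13 of 79 regions that overlap a member gene were separated as higher and 1 as lower, against 8.79% and 7.38% of all regions that overlap a protein-coding gene. Outside the member genes it was 5 higher and 8 lower of 54, against 7.59% and 8.36% of all regions outside protein-coding genes. That background is not of the same kind. It holds regions at any distance from a gene, while the members lie within 20 kb and can overlap another gene. The median log2 fold changes were 0.32 and -0.29, against -0.06 and -0.24 over all regions that overlap and that lie outside protein-coding genes. This division was chosen after the values were seen, regions of 1 gene are not independent, and Atp6v1a, Atp6v0a1 and Tfec alone hold 7 of the 13.

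The ratio of the highest to the lowest line had a median of 3.25 over the 133 tested member regions away from starts and reached 51.0, and its median was 1.94 over the 39 at starts. Over all regions the medians were 4.52 and 2.23. Regions away from starts were also weaker, with a median of 4.38 CPM against 23.8 CPM for the members at starts. A joint test passed 97 of the 133 (81.9% of all regions away from starts), and over all 172 members it passed 133, against 82.9%. Libraries of the genotypes did not overlap at 41 of the 133, with the knockout above at 26 and below at 15, against 15.1% and 13.3% of all regions away from starts. Every line was the highest at some of them: line 73 at 40, line 113 at 37, and lines 112 and 119 at 28 each. By pair, 48 of the 172 members differed between lines 112 and 113 (23.8% of all regions), 71 between 112 and 119 (45.8%), 74 between 113 and 73 (52.2%), 77 between 112 and 73 (49.9%), 91 between 119 and 73 (56.9%) and 103 between 113 and 119 (58.9%).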

How the data were processed

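A deposited table holds the authors' raw counts of 8 ATAC-seq libraries over 148664 regions, with 0 columns of other samples, and a peak list was deposited per library with a score, a fold over background (a ratio) and −log10 p and q per peak; the peaks were used by position only, to count libraries with a peak over at least 1 bp of a region. Bowtie2 2.2.4, Picard 1.118 and MACS2 2.1.1.20160309 are listed in the submitters' processing notes, with the builds mm10 and GRCm38 and no role or order. Whether reads, fragments or cuts were counted, how the regions were made and any shift for the transposase are not given in the sources used here. Peaks were listed per library, so a shallower library has fewer, and duplicates left in the counts would make counting error larger than it appears.

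Regions were placed on the RefSeq genes of GRCm38.p6. For 26 of the 32 genes starts came from the promoter table; for Atp6v1b2, Atp6v1c1, Atp6v1g1, Atp6v1h, Ctsb and Npc1 the gene ends served instead, so a distance can be from the finish of the gene. Of the member regions, 15 also overlap another protein-coding gene. A start region is the strongest within 1 kb of a start. The background of regions away from starts leaves out chromosome 18, for which the promoter table has no entry.

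Counts were summed per line and filtered with filterByExpr (140329 regions kept, minimum count of 10 and total of 15), scaled with TMM and tested with edgeR 4.0.16 (quasi-likelihood, robust, two-sided, R 4.3.3), 2 lines against 2. The 8 libraries were fitted with a mean per line for the 6 pairs of lines and a joint test. Adjustment was by Benjamini and Hochberg over all regions tested. CPM used TMM library sizes, and log2 CPM a prior count of 2. The mean of a genotype is that of its 2 line means. The tests were checked on simulated data. DESeq2 1.42.0 was an alternative.

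The 32 genes and all lists were chosen with earlier results of these data known. Named were all regions of Tfeb and Tfec, the starts of Lamp1, Ctsd, Mcoln1 and Atp6v1h, every separated region, and per group the regions with the smallest p for genotype and among lines. Other regions and starts were named after their values were seen.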

Additional observations from a re-analysis of the deposited data

Results flagged for a closer look

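In 7 of 148 sets of 4 libraries of a genotype, a library lay far from the other 3 by Dixon's test. For 4 values of 1 distribution, chance gives about 1 in 20. Each set here joins 2 lines that can differ, so that share is a rough mark only. At Tfeb, line 112 replicate 1 had 3.72 CPM at the region 1921 bp from a start, with 5.32 to 5.54 CPM for the rest of its genotype. Line 113 replicate 1 had 5.66 CPM at the region 8336 bp from a start, against 1.86 to 2.42 CPM. Line 112 replicate 2 had 7.39 CPM at the region at 6612 bp, against 5.35 to 5.66 CPM. Line 73 replicate 1 had 5.63 CPM at the region at 9593 bp, against 2.97 to 3.38 CPM. At Tfec, line 112 replicate 1 had 2.09 CPM at the region at 51535 bp, against 0.484 to 0.680 CPM. Beside Atp6v0e, line 73 replicate 1 had 2.30 CPM at the region at 4435 bp, against 0.775 to 1.01 CPM. At Atp6v1a, line 112 replicate 2 had 9.23 CPM at the region at 29549 bp, against 16.3 to 17.4 CPM. In the last 2 sets the genotypes did not overlap.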

How the results depend on the processing

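Of the 16 alternatives fitted, DESeq2 size factors and no filter kept the same 27 separated members. The DESeq2 Wald test separated 13 (8.66% of all regions) and passed 8 for genotype (4.98%). By pair it passed 39 members for lines 112 and 119, 49 for 112 and 73, and 22 for 112 and 113. A mean of at least 50 counts left 52 members to test. Of these 52, 5 were separated, against 17.7% of all regions, and 35 differed among lines, against 83.6%. The pairs gave 25 (112 and 119), 17 (112 and 73), 23 (113 and 119), 17 (113 and 73), 11 (112 and 113) and 24 (119 and 73). In the main fit, with 172 members tested, these pairs gave 71, 77, 103, 74, 48 and 91. Members within 1 kb of a gene gave 14 separated, 46 for lines 112 and 119 and 48 for 113 and 73. No share of all regions is given for these counts or for the pair counts of the alternatives. They are therefore not read as a result about the members. For genotype, regions that overlap a peak gave 1 member (against 0.163% of all such regions). That member, at Atp6v0a1, entered the set only through peaks of the knockout libraries, so this call adds no support. Libraries in place of lines as units gave 26 (against 22.7% of all regions).

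Replicate numbers did not pair the libraries: the correlations of replicate differences between lines ran from -0.0367 to 0.00386, with 0 over 0.1. With the replicate block the genotype test over libraries passed 21 members (against 17.3% of all regions), and 18 higher and 9 lower were separated.

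Leaving out 1 library at a time gave 106 to 142 members that differed among lines, 17 to 25 separated, 0 to 1 for genotype, 39 to 70 for lines 112 and 119, 51 to 75 for 112 and 73, 63 to 107 for 113 and 119, 61 to 85 for 113 and 73, 18 to 45 for 112 and 113, and 57 to 97 for 119 and 73. The pigment medians then ran from 0.60 to 0.84 in line 112, 1.21 to 1.45 in line 113, -0.64 to -0.52 in line 119 and -1.56 to -1.45 in line 73. They were 0.38, -0.41 and -1.26 in lines 112, 119 and 73 with the regional offset, -0.53 and -1.50 in lines 119 and 73 with DESeq2 size factors, and -1.59 in line 73 with a prior count of 0.5. The lysosome medians, an alternative chosen after seeing the data, were -0.48, 0.47, -0.40 and 0.42 in lines 112, 113, 119 and 73 with the regional offset. The medians of all starts were then -0.45, 0.38, -0.30 and 0.42 in the same order.

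Signs turned at 5 named regions whose log2 fold changes were near 0. The stronger Tfeb start gave 0.023 with total counts, 0.064 with peak regions and 0.059 with the regional offset, and -0.073 to 0.015 over the libraries left out. The median of all starts moved too, from 0.07 to 0.12 with total counts, to 0.13 with peak regions and to -0.09 with the regional offset, so no direction is read at that start. The Tfeb region at 7556 bp gave 0.049, 0.057 and 0.0077 with those settings and -0.12 to 0.063 over the libraries left out. That at 9593 bp gave 0.047 with total counts and -0.23 to 0.15 over the libraries left out, and that at 6612 bp -0.35 to 0.029. The Ctsd start gave -0.18 with the regional offset. The causes were not tested.

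The genotype test rests on 2 lines against 2, so a p that misses the threshold does not show equal levels. Member regions with few counts give wide errors: at the weakest separated region of Atp6v1a, wild-type libraries had 1 to 5 counts. Copy number of the lines was not measured, and the median of all regions moved from -0.09 to -0.23 with the regional offset.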
